A study of Macaca fascicularis with 2 samples.

Results

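The comparison set notochordal cells (NCs) of the monkey nucleus pulposus that carried reads of *SHH*, the secreted ligand sonic hedgehog, against NCs that carried none. An NC was a cell with 5 or more reads of both *KRT19*, a keratin of the embryonic notochord and its remnants, and *TBXT*, the transcription factor brachyury. Of 5723 cells in the library, 5674 had a single sample tag and 310 of these were NCs by that rule. Among the 310, 72 had 5 or more *SHH* reads (SHH-positive), 200 had none (SHH-zero) and 38 had 1 to 4. These read counts chose the groups, so the *SHH*, *KRT19* and *TBXT* values below are a description and not a result.

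The cells came from articular cartilage and nucleus pulposus of wild-type male cynomolgus monkeys (*Macaca fascicularis*) aged 3 years, with no treatment, pooled in 1 gene expression library and kept apart by 4 tags, A951 to A954. The labels name 3 tissue samples for this library and do not say which tag marks which, so the tags are given here by name only. By the study's methods the nucleus pulposus of this library came from 1 disc of 1 animal, so like values under different tags are not agreement between animals. All cells belonged to 1 library and cells are not replicates of a condition. No test was therefore made, and each difference below describes the cells of this library, with intervals that cover counting error only. The counts are sequencing reads without molecular identifiers, so the reads of a gene in a cell are not independent molecules and a few strongly amplified molecules can give many reads.

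The notochord is the embryonic rod from which the nucleus pulposus forms, and NCs are its remnant in the young disc, where they lie among chondrocyte-like cells. The notochord secretes SHH, which signals to neighbouring cells. SHH is lipidated by the acyltransferase HHAT and released through DISP1. In the receiving cell it binds PTCH1, which frees SMO and activates the GLI factors, and *GLI1*, *PTCH1* and *HHIP* are commonly used as readouts of the signal.

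*SHH* was found in a minority of NCs, and in those cells its reads were spread over a wide range. The SHH-positive NCs had 5 reads at the lowest, 44 at the median and 479 at the highest, and 54 of the 72 had 20 or more. Together they held 6442 *SHH* reads, 98.8% of those in NCs and 84.8% of those in all tagged cells. Just inside the threshold, 5 cells had 5 to 9 reads. Just outside, 7 cells had exactly 4, 3 had 3, 12 had 2 and 16 had 1. For the marker rule, 13 NCs had 5 to 9 reads of their lower marker, and 4 other tagged cells had 3 or more reads of both markers but fewer than 5 of one.

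The share of SHH-positive cells was 23.2% of the 310 NCs (exact 95% binomial interval 18.6 to 28.3%). Under tag A952 it was 26.3% (62 of 236 cells, 20.8 to 32.4%) and under A951 13.4% (9 of 67 cells, 6.33 to 24.0%), with overlapping intervals. Tags A953 and A954 held 5 and 2 NCs, of which 1 and 0 were SHH-positive. Over 4 near-equal bins of total reads per cell, from shallow to deep, the share was 19.2%, 14.3%, 23.4% and 35.9%, highest in the most deeply sequenced bin. Among the 5364 other tagged cells 0.205% had 5 or more *SHH* reads (11 cells, 0.102 to 0.367%), and 8.18% had at least 1 read against 35.5% of NCs, at median depths of 198674 and 186370 reads per cell. The 42 columns marked as doublets held no cell with 5 or more *SHH* reads (exact interval 0 to 8.41%). Taking 3 cells as the limit for a count of 0 would give 7.14%.

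**Figure D1:**
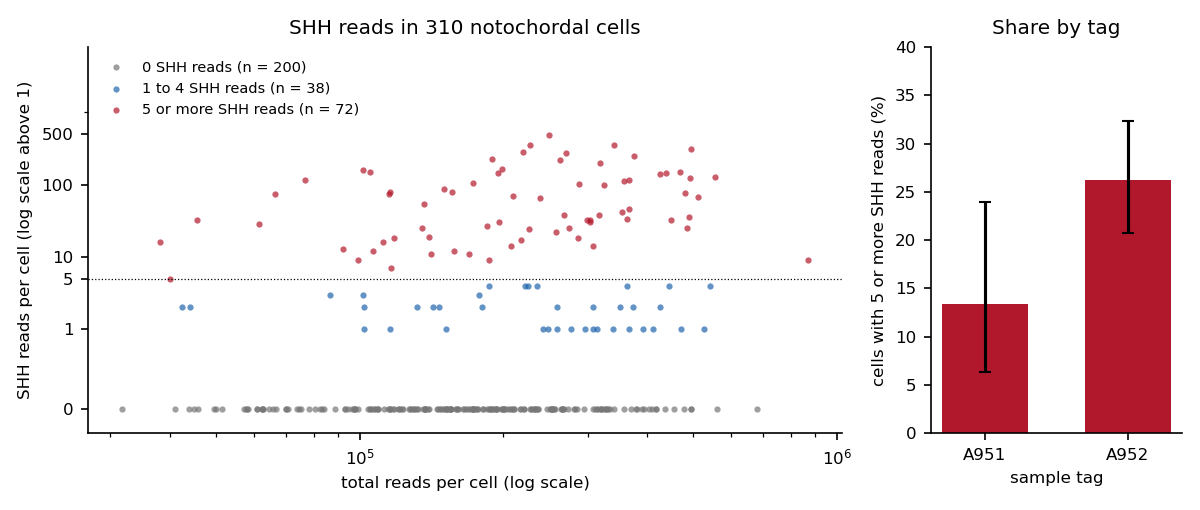
Left, *SHH* reads (vertical, logarithmic above 1) against total reads (horizontal, logarithmic) for each of the 310 NCs, with the threshold of 5 reads dotted. Right, the share of NCs with 5 or more *SHH* reads under tags A951 and A952 with exact 95% binomial intervals. SHH-positive cells lie across the whole range of depth, and their reads run from 5 to 479.

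The SHH-positive NCs were the deeper group, with a median of 226388 reads per cell against 165790 in SHH-zero NCs. Each was therefore paired with the SHH-zero NC nearest in total reads, which gave 71 pairs. The SHH-positive cell with the most reads, 867991, had no partner. After pairing, the medians were 225895 and 227079 reads, 4347 and 4412 genes detected, and 1.51% and 1.32% mitochondrial reads. The tags were not balanced by the pairing: the SHH-positive cells were 62 of A952 and 9 of A951, and the SHH-zero cells were 46 of A952, 22 of A951, 2 of A953 and 1 of A954. For this reason values paired within tags are given beside many of the genes described.

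The paired groups were alike in the markers that defined them. *KRT19* stood at 1156 rpm (reads per 1000000 reads) in the pooled reads of SHH-positive cells and 1004 rpm in SHH-zero cells, and *TBXT* at 769 and 904 rpm. Notochord genes that the rule did not use were also present in both groups. *APOE*, an apolipoprotein, had 5 or more reads in every cell of both groups, against 23.1% of other tagged cells. *NRN1*, which encodes the membrane protein neuritin, had them in 73.2% of SHH-positive and 83.1% of SHH-zero cells, against 0.913% of the others. Of 14 listed notochord genes that passed the detection filter, a read in at least 25% of the paired cells, 1 was at least 2-fold higher (*SPP1*, the matrix protein osteopontin, 5462 against 2486 rpm) and 1 at least 2-fold lower (*CA12*, a membrane carbonic anhydrase, 21.4 against 63.9 rpm). Over all 6808 genes tested, 7.45% were at least 2-fold higher and 10.9% lower. The median log2 ratio of the 14 was 0.06. Paired within tags, the log2 ratio was 0.78 for *SPP1* and -0.27 for *CA12*, both short of 2-fold.

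Across the transcriptome genes differed both in how many cells carried them and in pooled level. Of 6808 genes tested, 85 (1.25%) had 5 or more reads in a share of cells at least 20 percentage points higher in SHH-positive NCs, and 30 (0.441%) in a share at least 20 points lower. By the ratio of pooled rpm, 507 genes (7.45%) were at least 2-fold higher and 741 (10.9%) at least 2-fold lower. The median gene had a log2 ratio of -0.05, with quartiles of -0.50 and 0.37. The measures overlapped in part, with 31 genes higher by both rules and 21 lower by both. For 1501 genes the sign of the pooled ratio was opposite to that of the mean of log2(rpm + 1) per cell. By the difference of that mean, 323 genes were at least 2-fold higher and 215 lower, so the balance of directions turned. Pooled ratios alone were therefore read with care. The ranking by share was chosen after the values were seen.

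**Figure D2:**
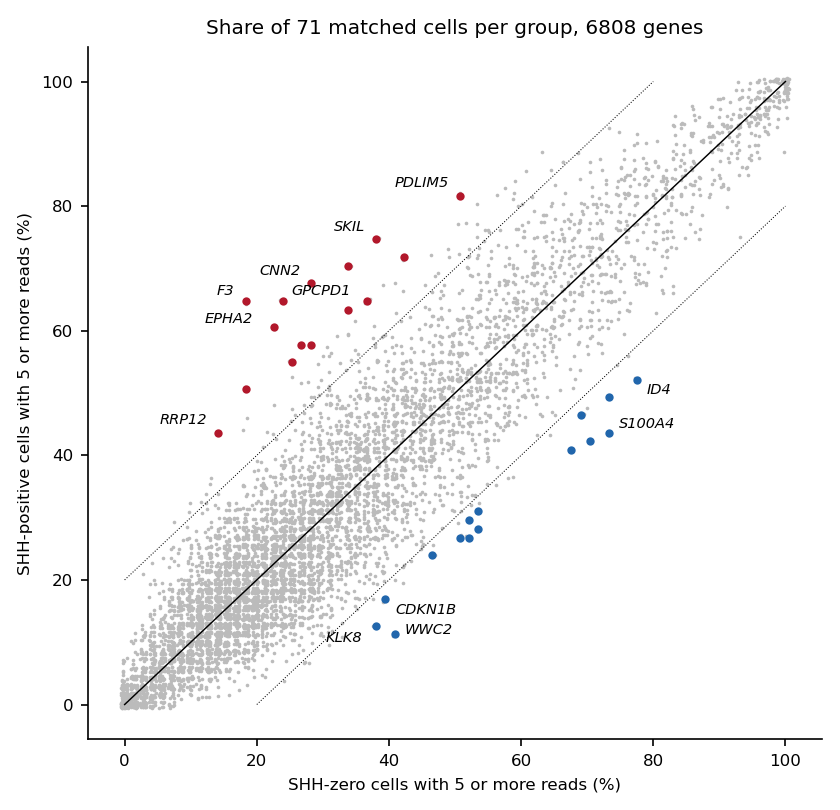
Percentage of paired SHH-zero NCs (horizontal) and SHH-positive NCs (vertical) with 5 or more reads of each of the 6808 genes, slightly jittered for the unmarked genes. The solid line marks equal shares and the dotted lines a difference of 20 points. Red and blue points are the 15 genes with the largest differences in each direction, from *F3* (64.8% against 18.3%) to *S100A4* (43.7% against 73.2%).

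*F3*, which encodes tissue factor, the cell-surface starter of blood coagulation, had the largest difference in share of all genes tested. It was at 0 in the lowest cell of both groups, at 249 rpm in the median SHH-positive and 0 in the median SHH-zero cell, and at 6571 and 2617 rpm in the highest cells. The groups overlapped, but 46 of 71 SHH-positive NCs had 5 or more *F3* reads (64.8%, 52.5 to 75.8%) and 13 of 71 SHH-zero NCs did (18.3%, 10.1 to 29.3%). Pooled, *F3* stood at 1018 against 161 rpm, a log2 ratio of 2.66. The difference held its direction with pairing within tags (64.8% against 25.4%), among all A952 cells (69.4% against 26.6%) and after thinning every cell to 50000 reads (61.8% against 16.2%). These settings reuse most of the cells by which *F3* was chosen, so they are not independent support. Under A951 it was 3 of 9 cells against 8 of 51. In the other tagged cells 3.32% had 5 or more *F3* reads. Read the other way, 42.0% of the 112 NCs with 5 or more *F3* reads were SHH-positive (32.7 to 51.7%) and 12.6% of the 198 others (8.34 to 18.1%), at median depths of 213548 and 162530 reads.

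Genes of cell shape and of contact with the surroundings followed. *CNN2*, the actin-binding protein calponin 2, had 5 or more reads in 67.6% of SHH-positive NCs and 28.2% of SHH-zero NCs, the same shares as with pairing within tags. *EPHA2*, a receptor for ephrins on neighbouring cells, did so in 60.6% and 22.5% (32.4% of SHH-zero cells with pairing within tags). *PDLIM5*, a scaffold protein of actin filaments, did so in 81.7% and 50.7% (57.7% of SHH-zero cells with pairing within tags). The median cell had 222 rpm of *CNN2* against 0, 96.2 rpm of *EPHA2* against 0, and 393 rpm of *PDLIM5* against 30.2.

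That ranking of 15 also held *GPCPD1*, *SKIL*, *VPS37B*, *ZFC3H1*, *TNFRSF10B*, *TMEM41B*, *SSU72*, *FOSL1*, *RRP12* and *POC1B*. *GPCPD1*, a phosphodiesterase of glycerophosphocholine, had 5 or more reads in 64.8% and 23.9% of cells. *SKIL*, a repressor of SMAD-dependent transcription, had them in 74.6% and 38.0%. *TNFRSF10B*, a death receptor for the ligand TRAIL, had them in 54.9% and 25.4%, and *FOSL1*, a partner of JUN proteins in the AP-1 factor, in 57.7% and 28.2%. All 15 had the same sign among all A952 cells, which held most of the paired cells that chose them, and 11 did among A951 cells, where only 9 cells were SHH-positive. Paired within tags, the differences of the 15 ran from 15.5 to 39.4 points and 13 were still at least 20 points.

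Fewer genes were carried by a smaller share of SHH-positive NCs, and their number depended on the cells compared. The 30 became 2 without pairing and 90 with SHH-positive from 20 reads. Of the 15 ranked lowest, 1 reached 20 points without pairing. *S100A4*, a small calcium-binding protein, and *WWC2* led the 30 with the same difference. The *S100A4* median was 6.50 rpm in SHH-positive and 675 rpm in SHH-zero cells, with lowest values of 0 in both and highest values of 5966 and 13081 rpm, so the ranges overlapped. It had 5 or more reads in 43.7% of SHH-positive cells (31.9 to 56.0%) and 73.2% of SHH-zero cells (61.4 to 83.1%), with pooled levels of 628 and 1261 rpm. The tags moved with it: paired within tags the shares were 43.7% and 63.4%, and among SHH-zero cells 84.3% of A951 and 57.3% of A952 had 5 or more reads.

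*WWC2*, a regulator of the Hippo pathway, had 5 or more reads in 11.3% against 40.8% of cells. *ID4*, an inhibitor of basic helix-loop-helix factors and a target of BMP signalling, had them in 52.1% against 77.5%, and *KLK8*, a secreted serine protease, in 12.7% against 38.0%. *CDKN1B*, the cell-cycle inhibitor p27, had them in 16.9% against 39.4%, and *CCNG2*, the atypical cyclin G2, in 29.6% against 52.1%. *INSIG2*, which holds the sterol sensor in the endoplasmic reticulum, had them in 26.8% against 52.1%. *EFCAB7*, *ITPRID2*, *CHD9*, *CLK1*, *ERGIC3*, *ARL6IP6* and *CCAR1* were also among the 15. All 15 were lower among A952 cells, again most of the cells that chose them, and 10 among A951 cells, and paired within tags the differences were 12.7 to 26.8 points, of which 6 reached 20 points.

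**Figure D3:**
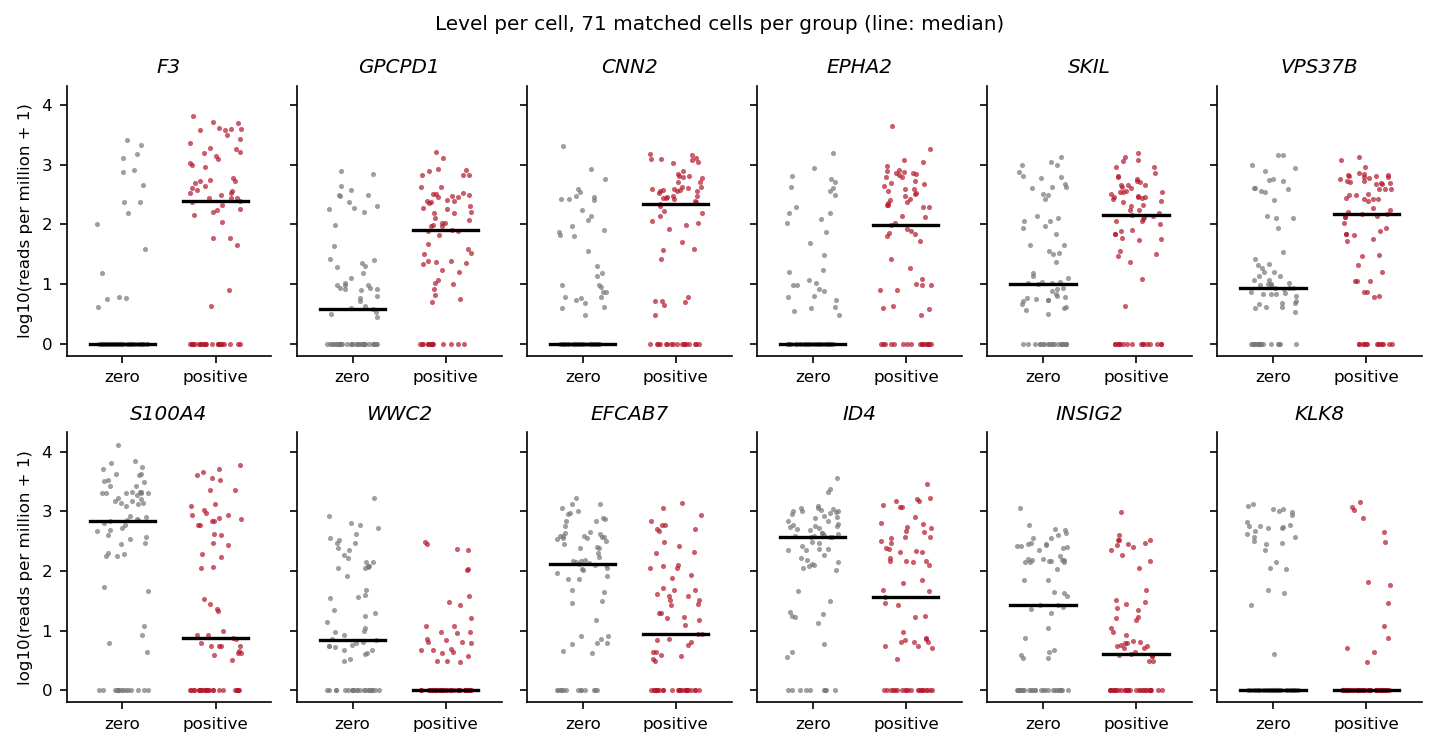
Level in each paired cell as log10(rpm + 1), 71 cells per group, for 6 of the genes ranked highest (upper row) and 6 of those ranked lowest (lower row) by difference in share, with the median as a line. In the upper row the median SHH-positive cell lies well above the median SHH-zero cell, while the ranges of single cells overlap.

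The largest pooled ratios belonged to genes with 5 or more reads in few cells. Upward these were *RBM38*, *HIVEP3*, *TBC1D22B*, *GALNT9*, *PLK3*, *SLC25A13*, *PAWR*, *MARK2*, *ITGA11*, *RASA3*, *FOXN2*, *PEX5L*, *HYDIN*, *ITGA2* and *PTPN14*, with log2 ratios of 2.96 to 3.94, and at most 29.6% of SHH-positive cells had 5 or more reads of any of them. With NCs chosen from 1 read of each marker, the direction of *RASA3* (-0.13) and *ITGA2* (-0.56) turned. At the median of these 15 genes, 1 cell gave 29.7% of the reads of the higher group. Downward they were *FBXO31*, *NT5E*, *NUP155*, *AHCYL2*, *PAX7*, *RGMA*, *TNFRSF1B*, *SKAP1*, *PPP3R1*, *BMPER*, *CLEC16A*, *PRDM10*, *NME7*, *NOL4* and *ZFP64*, with log2 ratios of -4.56 to -3.30. For *PAX7*, 1 SHH-zero cell gave 92.4% of the group's reads, and without the highest cell of each group its log2 ratio was -0.29. None of these 30 genes was among the 15 of either ranking by share. *FOXN2*, a forkhead factor, came nearest, with 5 or more reads in 29.6% against 7.04% of cells.

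Hedgehog genes were next, in the order of the pathway. *HHAT* was at 165 and 164 rpm in SHH-positive and SHH-zero cells and *DISP1* at 443 and 523 rpm, with 5 or more *DISP1* reads in 90.1% and 87.3% of cells against 51.7% of the other tagged cells. The counting intervals of these *DISP1* shares overlapped (80.7 to 95.9% and 77.3 to 94.0%). *SCUBE1*, a relative of the SHH-releasing SCUBE2, was at 239 and 289 rpm. *IHH*, the ligand Indian hedgehog, had no read in any paired cell.

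Of the receptors and co-receptors listed, 3 passed the detection filter, with 1 at least 2-fold higher and none lower, against 7.45% and 10.9% of all genes. Their median log2 ratio was 0.22 and kept its sign in 10 of 17 alternative settings. *GPC3*, a membrane glypican that binds hedgehog ligands, was the higher one, at 18.0 against 6.18 rpm, and 70.1% of its SHH-zero reads came from 1 cell. By mean log2(rpm + 1) per cell its difference was -0.18. *CDON*, a co-receptor, was at 114 against 97.4 rpm. *PTCH1* and *HHIP* were below the filter, with 5.96 against 20.0 rpm for *PTCH1* and 0.852 against 18.0 rpm for *HHIP*, and 59.3% of the *HHIP* reads of SHH-zero cells came from 1 cell.

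Among the mediators, *SMO* was below the filter at 4.43 and 6.93 rpm, against 44.8 rpm in the other tagged cells. *GLI1* was at 5.96 and 5.95 rpm, with medians of 5.78 and 4.96 rpm per cell and 9.35 rpm in the other tagged cells, a level near that of 1 read per cell. No cell of either group had 5 or more *GLI1* reads after thinning to 50000 reads, which at this level could hardly be otherwise. At full depth 2.5% of all 200 SHH-zero NCs had 5 or more. It was 5.56% of the SHH-positive NCs up to their median of *SHH* reads and 8.33% of those above it. These groups were not matched on depth. *GSK3B*, a kinase that marks GLI proteins for processing, was the 1 of 4 mediators tested that was at least 2-fold lower (23.1 against 57.4 rpm), and none was 2-fold higher, against 10.9% and 7.45% of all genes. *CSNK1A1*, another kinase of the pathway, was at 507 and 287 rpm.

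Most of the actin genes tested lay on the higher side, with a list median inside the quartiles of all genes (-0.50 and 0.37). Of 43 listed, 36 were in the matrix analysed. Of 34 genes of the actin and contractile cytoskeleton, 27 had a log2 ratio above 0 and 7 below, with a median of 0.36 against -0.05 over all genes, and 4 were at least 2-fold higher (11.8% of the list, against 7.45% of all genes) and none lower (10.9% of all genes). The 4 were *CNN2*, *TPM4* (a tropomyosin, 538 against 233 rpm), *ACTN1* (the crosslinker alpha-actinin 1, 490 against 234 rpm) and *PDLIM7* (134 against 64.5 rpm). Paired within tags, *CNN2* and *TPM4* were still past 2-fold (1.5 and 1.17 on the log2 scale) and *ACTN1* and *PDLIM7* were not (0.49 and 0.40). *ACTB*, the cytoplasmic beta-actin that the study names for 1 of its NC clusters, was at 76.4 rpm in the lowest, 10390 in the median and 21818 in the highest SHH-positive cell, and at 34.8, 2323 and 40141 rpm in SHH-zero cells. The middle of the distribution differed more than the pooled levels did, which were 10271 and 5672 rpm (log2 ratio 0.86, or 0.74 paired within tags). *ACTG1*, the gamma form, was at 10952 and 6008 rpm pooled, with medians of 10832 and 3133 rpm.

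Ordered by *ACTB* plus *ACTG1* rpm into 4 near-equal bins, the 310 NCs had 8.97% SHH-positive cells in the lowest bin (3.68 to 17.6%), 13.0% and 28.6% in the middle bins and 42.3% in the highest (31.2 to 54.0%). Median depth in these bins was 130500, 180932, 236052 and 204635 reads, so it rose along with the share up to the third bin and fell in the highest. The bins were not matched on depth, and what part depth had in the shares was not tested. *CA3*, carbonic anhydrase 3, which the study names for another NC cluster, was below the detection filter. It had 5 or more reads in 5.63% of SHH-positive and 15.5% of SHH-zero cells (1.56 to 13.8% and 8.0 to 26.0%). Of 4 carbonic anhydrases tested, none had a ratio above 0, and *CA12* and *CA11* were at least 2-fold lower, against 10.9% of all genes. Paired within tags, *CA12* was short of 2-fold (log2 ratio -0.27).

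Adhesion and microtubule genes held single large differences and no shared direction. For this and the following lists, the counts at least 2-fold higher and lower stand against 7.45% and 10.9% of all genes. *ITGA5*, the alpha chain of the fibronectin receptor, was at 1154 rpm in the median SHH-positive cell and 117 rpm in the median SHH-zero cell, and pooled at 1461 against 422 rpm (log2 ratio 1.79, or 1.15 paired within tags). Of 18 genes of basement membrane and integrins, 5 were at least 2-fold higher and 3 lower, with a median log2 ratio of -0.17. *TUBB6*, a beta-tubulin, had 5 or more reads in 84.5% against 59.2% of cells, and of 7 tubulins 2 were 2-fold higher and 1 lower. Of 16 epithelial adhesion genes, 3 were 2-fold higher and none lower. They were *TJP1* of tight junctions and *DSG2* and *PKP1* of desmosomes, with log2 ratios of 0.56, 0.89 and 1.01 when paired within tags.

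Growth factor genes were next. *HBEGF*, a membrane-anchored ligand of the EGF receptor, had 5 or more reads in 83.1% against 57.7% of cells (63.4% of SHH-zero cells with pairing within tags), with medians of 266 and 32.8 rpm. *EREG*, another ligand, was at 135 against 39.8 rpm and *EGFR* itself at 72.8 against 30.5 rpm, the 2 of 8 genes of the list that were at least 2-fold higher. Paired within tags, *EREG* was still past 2-fold (log2 ratio 2.14) and *EGFR* was not (0.84). *AREG*, a further ligand, was at 363 and 408 rpm. *SPRY2*, an inhibitor of receptor tyrosine kinase signalling, had 5 or more reads in 43.7% against 22.5% of cells.

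In the TGF-beta lists, of 14 ligands, receptors and SMADs none was at least 2-fold higher and *TGFBR3* and *SMAD4* were lower, while 3 of 20 response genes were 2-fold higher (*PMEPA1*, *THBS1* and *BHLHE40*) and *COL3A1* was lower. Of these, *PMEPA1*, *TGFBR3* and *SMAD4* stayed past 2-fold with pairing within tags (log2 ratios 1.75, -1.74 and -1.64), and *THBS1* (0.98), *BHLHE40* (0.81) and *COL3A1* (-0.82) did not. The direction of 3 of the response genes turned under another choice of cells: with NCs chosen from 1 read of each marker the log2 ratio was -0.65 for *PMEPA1* and -1.35 for *THBS1*, and without pairing it was 0.18 for *COL3A1*. By the share of cells with 5 or more reads, 1 of the 14 ligands, receptors and SMADs was at least 20 points higher and none lower. Over all genes these shares were 1.25% and 0.441%. *TGFB1* was at 217 against 133 rpm. Of 15 BMP genes 3 were higher and 3 lower, the latter including *ID2* (543 against 1381 rpm, a log2 ratio of -1.40 paired within tags) and *ID4*. *HES1*, a Notch target, was at 128 against 30.6 rpm (log2 ratio 2.21 paired within tags), and 1 of 4 Notch genes was thus 2-fold higher. Of 7 WNT genes none was 2-fold higher and 1 lower.

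Immediate early genes, which cells switch on within minutes of a stimulus or of handling, went in both directions. Of 17 tested, 2 were at least 2-fold higher and 7 lower, with a median log2 ratio of -0.43, which was 0.15 when NCs were chosen from 1 read of each marker, and a median share difference of 8.45 points on the higher side. *FOS* was at 24.8 rpm in the median SHH-positive and 546 rpm in the median SHH-zero cell, and pooled at 426 against 3239 rpm. *JUN* was at 1137 against 5096 rpm. Paired within tags, the log2 ratio was -3.06 for *FOS* and -1.98 for *JUN*. *FOSB*, *EGR1*, *KLF4* and *DUSP1* also had lower pooled levels. The share of cells with 5 or more reads ran the other way for 3 of these genes, at 90.1% against 77.5% for *JUN*, 70.4% against 62.0% for *KLF4* and 62.0% against 57.7% for *DUSP1*. *MYC*, in contrast, had 5 or more reads in 77.5% against 50.7% of cells (56.3% of SHH-zero cells with pairing within tags), and *NR4A3* and *FOSL2* were the 2 genes at least 2-fold higher. Heat shock and unfolded protein genes also went in both directions. Of 18 tested, 7 had a log2 ratio above 0 and 11 below, with a median of -0.20, and 1 was at least 2-fold higher and 3 lower. Among the lower was *DNAJB1*, a co-chaperone, at 643 against 1575 rpm pooled (log2 ratio -1.29 paired within tags), but with 5 or more reads in 73.2% against 70.4% of cells and medians of 355 against 297 rpm. Whether the state of the cells at dissociation took part in these differences was not tested.

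**Figure D4:**
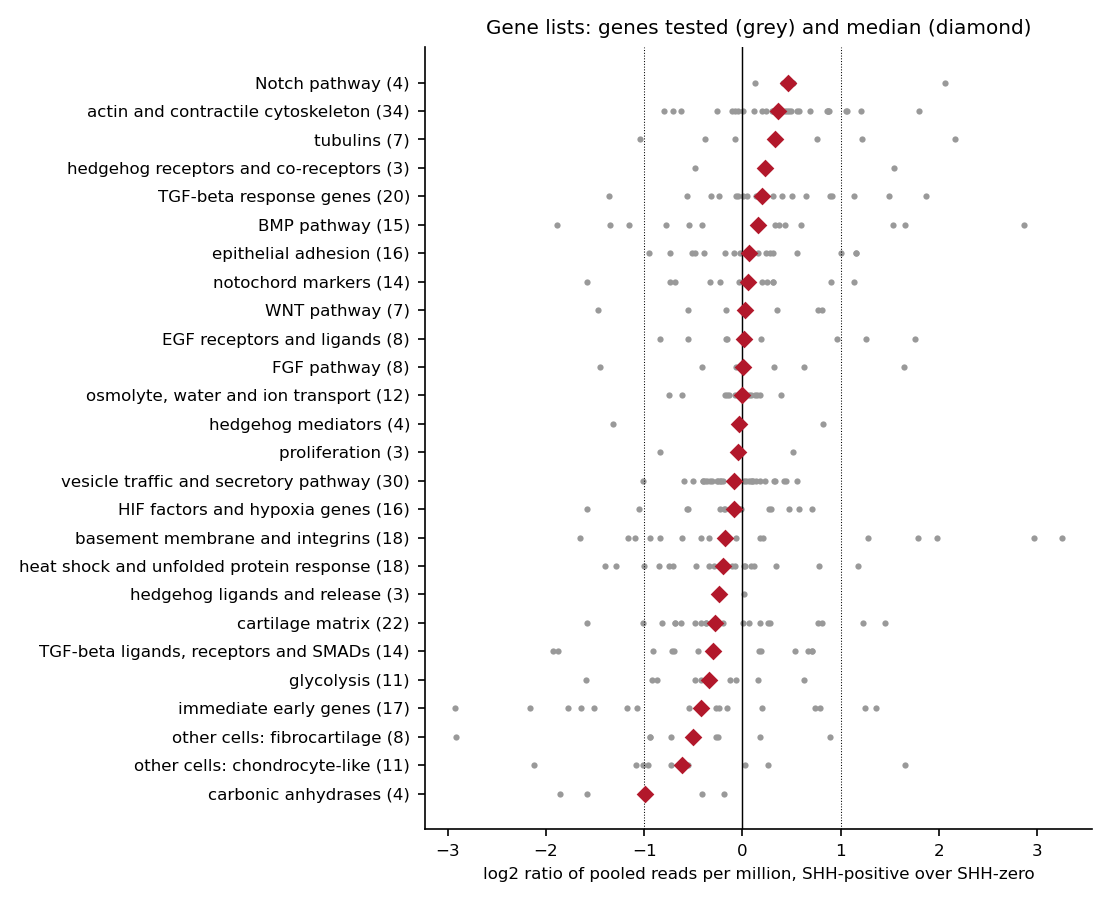
Log2 ratio of pooled rpm, SHH-positive over SHH-zero NCs, for each gene tested (grey points) and its list median (red diamonds), for lists with 3 or more genes tested, whose number stands in brackets. Dotted lines mark 2-fold. The actin list lies mostly above 0 (median 0.36), glycolysis and immediate early genes mostly below (medians -0.34 and -0.43). These medians lie within the quartiles of all genes (-0.50 and 0.37).

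Most of the glycolytic genes tested lay on the lower side. Of 17 listed, 12 were in the matrix analysed, without *ALDOA*, *TPI1*, *GAPDH*, *PGAM1* and *PKM*. Of 11 tested, 9 had a log2 ratio below 0, with a median of -0.34 against -0.05 over all genes. That median lay within the quartiles of all genes (-0.50 and 0.37). Only *ENO2* was at least 2-fold lower (19.3 against 58.2 rpm, a log2 ratio of -1.40 paired within tags), and none was 2-fold higher. The other metabolic and secretory lists held few genes past 2-fold. Of 16 HIF and hypoxia genes 2 were 2-fold lower, *P4HA1* and *CA12*, neither of them with pairing within tags (log2 ratios -0.81 and -0.27). In the vesicle and secretory list 1 of 30 was lower and none higher, and in the osmolyte and ion transport list none of 12 was either. The water channel *AQP3* had pooled levels of 589 and 562 rpm but medians of 358 and 4.96 rpm. Of 22 cartilage matrix genes 2 were 2-fold higher and 2 lower. Of the 2 muscarinic receptor genes tested, 1 was lower, *CHRM2*, at 25.5 against 71.3 rpm. Only 3 of 18 proliferation genes passed the filter, and none was 2-fold different.

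Markers of chondrocyte-like and fibrocartilage cells summed to far less than in the other tagged cells, and in the paired cells to less in the SHH-positive group. The chondrocyte-like list summed to 2190 rpm in SHH-positive and 3713 rpm in SHH-zero cells, against 31328 rpm in other tagged cells, and 1 of 11 genes was at least 2-fold higher and 3 lower. *BGN*, biglycan, had the most reads of it. The fibrocartilage list summed to 479, 2234 and 15061 rpm, with 1 of 8 genes lower. That gene was *PRG4*, lubricin, and it had the most reads: its median was 175 rpm in SHH-positive and 171 rpm in SHH-zero cells, and 1 cell gave 35.8% of the SHH-zero reads. These sums depended on the cells compared. Paired within tags, the chondrocyte-like list summed to 2190 and 2454 rpm and the fibrocartilage list to 479 and 992 rpm. Over all 72 SHH-positive and 200 SHH-zero NCs, without pairing, the sums were 2671 and 3108 rpm and 1426 and 1271 rpm, so that the fibrocartilage order turned, and the log2 ratio was 0.18 for *PRG4* and 0.12 for *BGN*. The SHH-positive cell without a partner had 19883 rpm of *PRG4* and 7800 rpm of *BGN*. Immune markers summed to 29.6 and 33.5 rpm with no read of *AIF1* or *FCER1G*, and the 1 that passed the filter, *CD68*, was at 17.7 and 3.58 rpm. Summed levels were 10.5 and 24.0 rpm for endothelial and mural markers and 0 and 0.75 rpm for erythroid and platelet markers. *S100B* was the only nerve and glia marker to pass the filter, at 419 and 521 rpm. What part these markers had in the differences above was not tested.

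The 38 NCs with 1 to 4 *SHH* reads were outside the comparison and are described here for the ranked genes. Other genes did not all lie between the groups compared. *COL2A1* was at 2406 rpm, against 1094 rpm in SHH-zero NCs and 1241 and 830 rpm in SHH-positive NCs up to and above the median. *F3* had 5 or more reads in 23.5% of all 200 SHH-zero NCs, 47.4% of the NCs with 1 to 4 reads, 55.6% of the SHH-positive NCs up to the median and 75.0% of those above it. *CNN2* did so in 30.5%, 52.6%, 58.3% and 77.8%, and *S100A4* in 65.0%, 57.9%, 47.2% and 41.7%. These groups were not matched and their median depths were 165790, 253106, 201946 and 256247 reads, so the step from 0 to 1 to 4 reads and the step above the median both went with more reads per cell, and the step between them with fewer. The ranked genes were chosen for their difference between paired SHH-zero and SHH-positive cells, which are part of these groups, so the ends of the order are fixed by that choice. All 15 genes ranked highest by share were higher in the 1-to-4 group than in the SHH-zero group, 12 were higher again up to the median, and 13 were higher above the median than below it. For the 15 ranked lowest, the corresponding steps went downward for 9, 13 and 6.

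**Figure D5:**
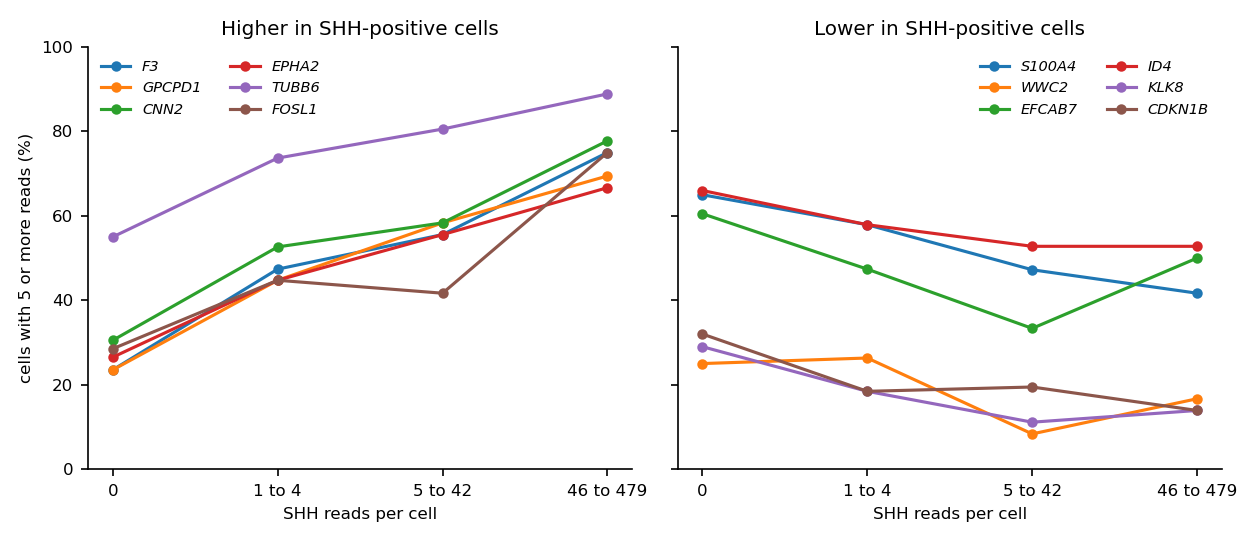
Percentage of NCs with 5 or more reads of 6 genes higher (left) and 6 genes lower (right) in SHH-positive cells, over 4 groups of NCs by *SHH* reads (0, 1 to 4, 5 to 42 and 46 to 479; n = 200, 38, 36 and 36, unmatched). *F3* goes from 23.5% to 75.0% and *S100A4* from 65.0% to 41.7%.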

How the data were processed

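Cells of articular cartilage and nucleus pulposus were profiled by TAS-seq, a single-cell RNA-seq method with cDNA amplification on beads. The authors deposited counts of reads per gene and cell, which are not normalized and carry no molecular identifiers. Per the labels and the study's methods, HISAT2 2.2.1 and featureCounts 2.0.2 were used, and the genome build is not given in the sources used here. A second matrix of 1358 cells, which no label lists, was not used. Some genes are not reported here. The matrix analysed listed 21371 genes.

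Members, gene lists and tests were chosen with earlier results of these data known. Each SHH-positive NC was paired with the nearest SHH-zero NC in log10 total reads (optimal 1:1 matching, largest distance allowed 0.1). Genes with a read in at least 25% of paired cells were tested, *SHH* left out. Levels are summed reads per 1000000 reads of the group (rpm), with 3 reads as the floor of a ratio, and 2-fold was counted. The second rule, a share of cells with 5 or more reads differing by 20 percentage points, was added after the values were seen. Shares have exact (Clopper-Pearson) 95% intervals. Thinning drew 50000 reads per cell without replacement (68 cells per group). Genes were named by the 15 highest and 15 lowest log2 ratios with the same sign in tag A952, the 1 tag with 10 or more paired cells per group, and in mean log2(rpm + 1) (pseudocount 1 rpm), by the same number of share differences (3 further genes in each direction tied with the last place and were left out without a rule), and as list members with the largest ratios. No filter on cells was added beyond the rule, and the 42 columns marked as doublets were left out. The pairing by depth and the pooled ratio were tested on simulated cells. The share rule, the thinning and the list medians were not. All steps were run in Python 3.11.15 with numpy 2.4.6, pandas 2.3.3 and scipy 1.17.1. Single-tag cells had 24907 to 1649566 reads.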

Additional observations from a re-analysis of the deposited data

Results flagged for a closer look

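Outside the 310 NCs, 11 of 5364 tagged cells had 5 or more *SHH* reads, 0.205% of them, where a count of 0 would allow up to 0.0559%. All 11 were under tag A952. Of these, 8 had 5 or more *KRT19* reads, 3 had 5 or more *TBXT* reads and 0 had 5 or more of neither, and the highest had 188 *SHH* reads. They were outside the main comparison because they missed the threshold for one of the markers. With the markers from 1 read, 74 SHH-positive cells were paired, more than the 72 of the main group. Some of these 11 cells therefore entered that alternative.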

How the results depend on the processing

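With 1 library and no test, the alternatives move descriptions only. The counts of genes higher and lower stayed within 1.5 times under pairing by genes detected, pairing within tags, tag A952 alone, mean of cell rpm, centring on the median gene and leaving out A953 and A954. The study's cell limits (200 to 9000 genes and under 5% mitochondrial reads) removed no NC. That setting therefore repeated the main comparison, although it is among the 17 alternatives counted. The 2-fold counts (507 and 741) became 237 higher without pairing, 312 and 456 with SHH-positive from 1 read, 323 and 215 with the mean of log2(rpm + 1), 257 and 303 after thinning, 1139 and 1524 with detection in 10% of cells, and 128 and 174 in 50%. The share counts (85 and 30) became 200 and 2 without pairing, 56 and 12 with SHH-positive from 1 read, 161 and 90 from 20 reads, 150 higher with *KRT19* and *TBXT* from 1 read, 67 lower from 20 reads and 46 lower without A951. The share of SHH-positive NCs became 35.5% from 1 read, 17.4% from 20 reads and 18.1% with the markers from 1 read. The genes ranked highest and lowest by share kept their direction under each alternative that gives shares, where 14 or 15 of the highest and 13 to 15 of the lowest passed the filter, but among A951 cells 11 and 10 of 15 did, and only 1 of the lowest reached 20 points without pairing. The alternatives reuse most of the cells that chose these genes, so a kept direction is not independent support.

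Of 2091 values of 123 named genes, 7 changed sign from at least 2-fold: *COL3A1* (0.18) and *PRG4* (0.18) without pairing, *RASA3* (-0.13), *ITGA2* (-0.56), *PMEPA1* (-0.65) and *THBS1* (-1.35) with the markers from 1 read, and *GPC3* (-0.18) by mean log2. The cause was not tested. The actin and glycolysis medians kept their sign in 17 of 17 alternatives (0.27 to 0.65 and -0.63 to -0.15), the notochord median in 13 and the hedgehog mediator median in 5. Leaving out the tags was chosen after seeing the data. Pairs here are pairs of cells of like depth, and with 1 library there were no replicate samples to pair. Tag A951 alone, with 9 SHH-positive cells, was read for directions and single shares but not run as an alternative. Depth limits *GLI1*, which lay near 1 read per cell.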
